A study of Mus musculus with 8 samples.

Results

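The 39 Hox cluster genes were followed through 8 libraries of embryonic mouse lung, strain C57BL/6. They are the records whose symbol is Hoxa, Hoxb, Hoxc or Hoxd followed by a number, 39 of 23997 gene symbols in all, with 1 record each. The Hoxa cluster holds 11 of them, Hoxb 10, Hoxc 9 and Hoxd 9. TRAP (translating ribosome affinity purification) pulls down tagged ribosomes of chosen cells together with the mRNA on them. Here the ribosomes were taken through the ribosomal protein L10 after labelling with tamoxifen, in a study of lung progenitors that express the transcription factor Sox9. There was 1 library each for wild-type TRAP at embryonic day 14 (E14), wild-type whole lung at E14, wild-type TRAP at E17 and wild-type whole lung at E17. At E16 there were 2 wild-type and 2 Sox9-mutant libraries, all TRAP by their labels. E13 stands in the E16 titles as well, with no explanation. The labels name neither the driver of the labelling nor the mutant allele, and the design text calls the E14 reference a supernatant although its own label says whole lung homogenate. The labels do not say if replicates are separate animals, and the spread behind each p-value may therefore be technical.

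Hox genes encode homeodomain transcription factors that give cells of the embryo their position along the head-to-tail axis. They lie in 4 clusters, and genes with the same number in different clusters are paralogs descended from a common ancestor. Low numbers sit at the 3′ end of a cluster and are switched on early and towards the head, and high numbers sit at the 5′ end and act towards the tail. In the lung, Hox genes are known mainly from the mesenchyme, where Hoxa5 is needed for normal airway and alveolar growth.

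Promoters are shown for 4 genes to set the sequence of members that moved together beside that of a nearly silent one: Hoxa5, Hoxb4 and Hoxb8 were among the members lower in TRAP, and Hoxa9 was close to 0 throughout. Each run is the 250 bases before the RefSeq start on the gene's own strand (GRCm38.p6), and capitals mark any match, on either strand, to TGATNNAT (a PBX-HOX pair), CCAAT or AGGTCA (a retinoic acid receptor half-site).
Hoxa5, chr6:52204588-52204837, minus strand: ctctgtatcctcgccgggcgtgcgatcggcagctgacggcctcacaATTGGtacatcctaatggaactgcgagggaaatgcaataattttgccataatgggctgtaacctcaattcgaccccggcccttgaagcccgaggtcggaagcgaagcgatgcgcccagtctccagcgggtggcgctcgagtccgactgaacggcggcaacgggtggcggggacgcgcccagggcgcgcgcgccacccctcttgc
Hoxb4, chr11:96318017-96318266, plus strand: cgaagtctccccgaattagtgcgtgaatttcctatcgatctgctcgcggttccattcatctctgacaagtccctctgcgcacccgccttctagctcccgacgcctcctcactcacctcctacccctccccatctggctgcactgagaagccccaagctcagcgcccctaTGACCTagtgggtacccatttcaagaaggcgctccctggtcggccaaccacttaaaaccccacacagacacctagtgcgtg
Hoxb8, chr11:96281655-96281904, plus strand: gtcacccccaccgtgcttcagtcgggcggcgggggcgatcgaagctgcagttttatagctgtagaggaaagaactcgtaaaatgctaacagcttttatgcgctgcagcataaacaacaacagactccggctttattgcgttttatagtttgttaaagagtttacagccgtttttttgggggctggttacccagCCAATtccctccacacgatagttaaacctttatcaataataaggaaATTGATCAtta
Hoxa9, chr6:52227371-52227620, minus strand: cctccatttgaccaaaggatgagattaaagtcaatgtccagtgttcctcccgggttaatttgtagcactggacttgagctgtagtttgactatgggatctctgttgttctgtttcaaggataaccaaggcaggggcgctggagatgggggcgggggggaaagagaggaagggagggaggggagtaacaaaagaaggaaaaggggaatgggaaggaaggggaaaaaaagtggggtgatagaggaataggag
The match in Hoxa5 is a CCAAT box on the other strand, and Hoxb4 holds a single AGGTCA on the other strand. Hoxb8 holds a CCAAT box and, 11 bases before its start, a PBX-HOX match, and no match in these 4 windows overlapped another. The RefSeq table held 24 promoters for 22 of the 39 members. Among them 14 (58.3%) held CCAAT against 33.8% of 32851 promoters in all, 4 (16.7%) held TGATNNAT against 7.68%, and 6 (25.0%) held AGGTCA against 14.02%. Their median number of CpG dinucleotides was 12.5, against 6 in all promoters. Of the 4 printed promoters, Hoxa5 held 28 and Hoxa9 held 3, with GC contents of 63.6% and 49.6%. Over the 24 the number ran from 2 in a promoter of Hoxd11 to 35 in Hoxa13. These are descriptions of the letters in the window, and no promoter of the other 17 members was used here.

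The libraries held 9783768 to 21500523 fragments, computed from the deposited confidence bounds, of which 1228 to 22830 lay on Hox genes. Sox9, read as a check of the labels, was at 63.9 FPKM in E14 TRAP against 15.0 in whole lung, and at 68.5 against 16.7 at E17. In the E16 libraries it was at 35.9 and 36.4 FPKM in the wild type and at 12.8 and 11.03 in the mutant. The groups thus did not overlap, a separation that 60% of all records above 0 showed in either direction. FPKM is corrected for transcript length and for library depth, so levels may be compared between genes. The short record Mir762 held 50.05% of the FPKM total of E16 wild-type replicate 1 and 34.0% of that of E17 TRAP.

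Hox expression in these lungs came almost wholly from the Hoxa and Hoxb clusters and from paralogs 1 to 8. The summed Hox level was 447.1 FPKM in E14 whole lung and 282.3 in E17 whole lung, but 68.9 in E14 TRAP and 42.04 in E17 TRAP. At E16 the wild-type TRAP libraries had 30.9 and 41.9 FPKM and the mutant ones 26.6 and 40.7. The Hoxb cluster held between 56.1% (E17 whole lung) and 73.7% (mutant replicate 1) of that sum, and Hoxa between 25.7% and 43.2%. Hoxc and Hoxd together added little, with Hoxc at most 1.56% and Hoxd at most 0.424% in any library. Paralogs 9 to 13 made up at most 2.80% of the sum, the highest share being that of E17 TRAP.

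**Figure D1:**
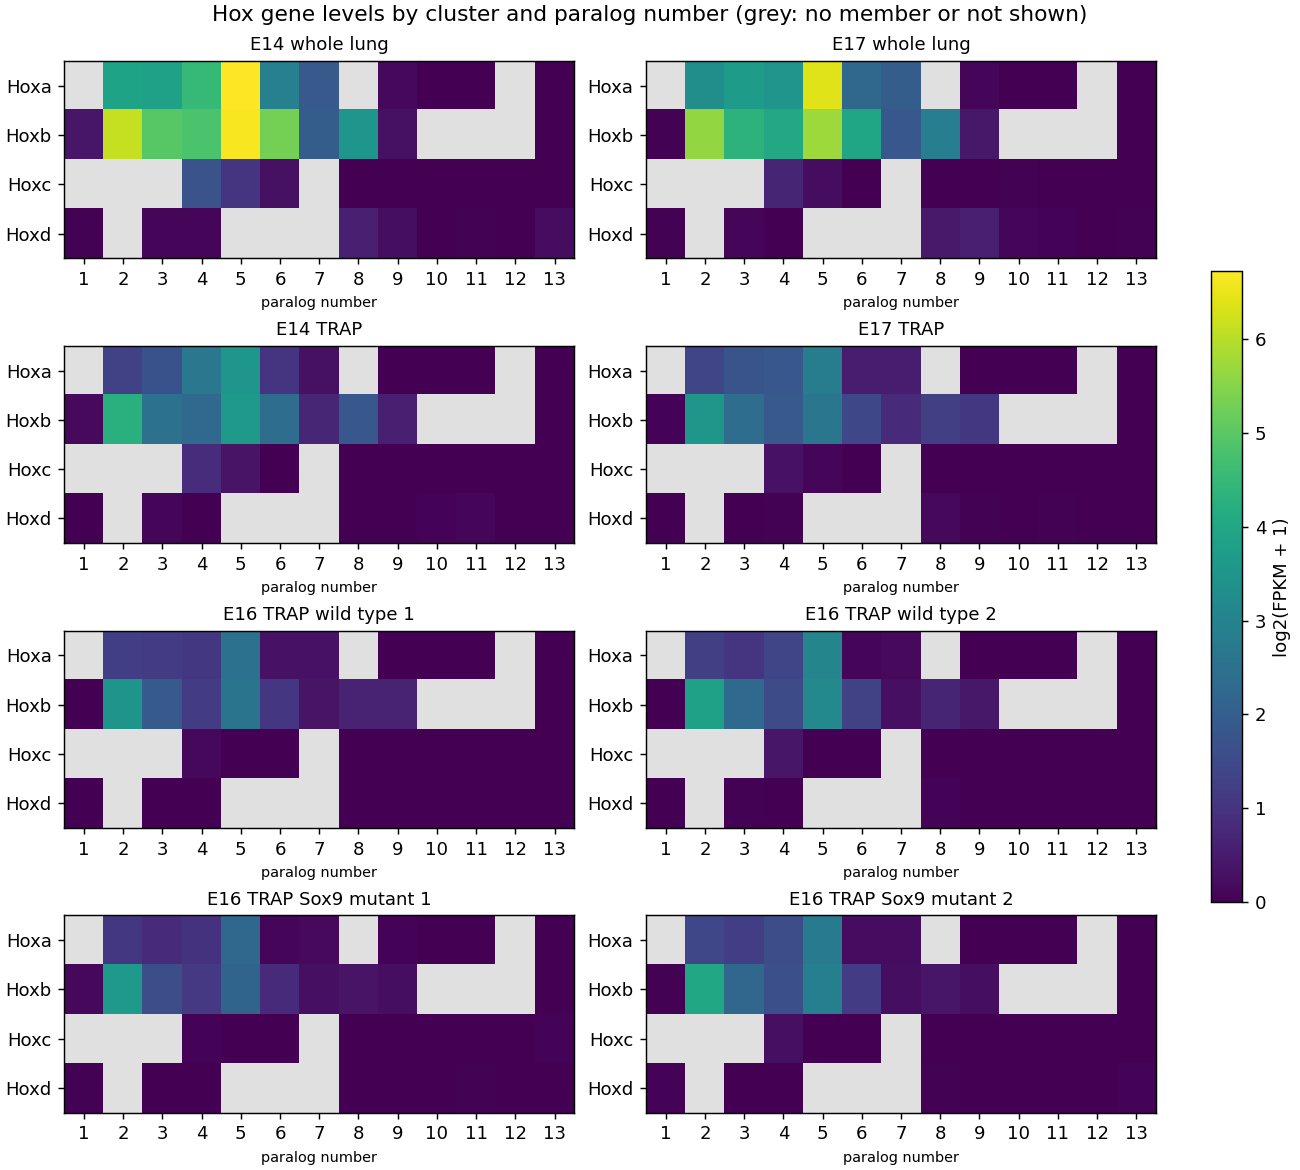
Level of each Hox gene as log2(FPKM + 1), with clusters as rows and paralog numbers as columns, 1 panel per library and grey where there is no member or none is shown. The brightest cells in every panel are those of Hoxa5, Hoxb5 and Hoxb2, whereas Hoxa6, Hoxa7, Hoxb7 and Hoxb8 lie under 1 FPKM in the E16 panels. The whole lung panels are the brightest, with Hoxa5 at 104.1 FPKM at E14.

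The levels led with 3 genes. Hoxa5, on chromosome 6 (52201754 to 52204587, mm10), was at 104.1 and 83.2 FPKM in E14 and E17 whole lung. Its TRAP values were 10.6 at E14, 6.04 at E17, 4.76 and 7.36 in the E16 wild type and 3.75 and 5.82 in the mutant. Both whole lung values thus stood far above all 6 TRAP values.
Its paralog Hoxb5 (chromosome 11, 96303512 to 96306121) was at 99.4 and 51.9 FPKM in E14 and E17 whole lung. In TRAP it was at 11.5 at E14, 5.25 at E17, 5.03 and 8.01 in the E16 wild type and 3.45 and 6.47 in the mutant. Hoxb5 and Hoxa5 lay close together in every library, with a Hoxb5 level between 0.623 (E17 whole lung) and 1.11 (mutant replicate 2) times that of Hoxa5.
Hoxb2 (chromosome 11, 96351632 to 96354014), known for its part in hindbrain patterning, was at 68.6 and 48.3 FPKM in E14 and E17 whole lung. In TRAP it was at 18.2 at E14, 10.7 at E17, 10.2 and 13.2 in the E16 wild type and 11.4 and 14.9 in the mutant. Hoxb2 was therefore behind Hoxa5 and Hoxb5 in both whole lung libraries but the highest Hox gene in all 6 TRAP libraries. Its level was 0.659 and 0.581 times that of Hoxa5 in E14 and E17 whole lung and between 1.71 and 3.04 times in TRAP. In the E16 wild type Hoxb5 was at 6.52 ± 2.11 FPKM, Hoxa5 at 6.06 ± 1.83 and Hoxb2 at 11.7 ± 2.16 (SD, n = 2 each). Within these 2 libraries Hoxb5 was at 1.06 and 1.09 times the level of Hoxa5, a difference that was not tested.

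The middle paralogs came next. Hoxb3 was at 30.6 and 19.2 FPKM in E14 and E17 whole lung, 4.83 and 4.28 in the matching TRAP, 2.72 and 3.91 in the E16 wild type and 2.09 and 3.62 in the mutant. Hoxb4, a gene also known for its action in blood stem cells, was at 27.3 and 15.5 FPKM in whole lung, 3.90 and 2.67 in TRAP, 1.27 and 1.95 in the E16 wild type and 1.15 and 2.11 in the mutant. Hoxb6 was at 38.4 and 14.4 FPKM in whole lung, 4.24 and 1.72 in TRAP, 1.10 and 1.46 in the E16 wild type and 0.767 and 1.25 in the mutant. All 3 were highest in E14 whole lung, and in none of them did a TRAP value reach a whole lung value.
Hoxa4 was at 21.5 and 10.3 FPKM in whole lung, 5.36 and 2.56 in TRAP, 1.13 and 1.64 in the E16 wild type and 0.975 and 2.03 in the mutant. Hoxa3, a gene of the pharyngeal arches, was at 13.3 and 12.1 FPKM in whole lung, 2.25 and 2.36 in TRAP, 1.25 and 1.04 in the E16 wild type and 0.728 and 1.36 in the mutant. Hoxa2, a selector gene of a pharyngeal arch, was at 13.96 and 8.89 FPKM in whole lung, 1.49 and 1.62 in TRAP, 1.36 and 1.44 in the E16 wild type and 1.15 and 1.69 in the mutant. The record of Hoxa3 spans those of Hoxa4, Hoxa5 and Hoxa6, and no source used here gives the strand setting of the counting, so how reads were divided among these genes is uncertain.

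Lower members followed the same split between fractions. Hoxb8 was at 10.5 and 6.29 FPKM in whole lung, 2.55 and 1.40 in TRAP, 0.563 and 0.608 in the E16 wild type and 0.267 and 0.334 in the mutant. Hoxa6 was at 6.58 and 3.84 FPKM in whole lung, 1.07 and 0.459 in TRAP, 0.252 and 0.0767 in the E16 wild type and 0.0698 and 0.168 in the mutant. For both, the lower whole lung value was more than any TRAP value.
Hoxa7 was at 2.64 and 2.97 FPKM in whole lung, 0.224 and 0.433 in TRAP, 0.245 and 0.134 in the E16 wild type and 0.124 and 0.171 in the mutant. Hoxb7 was at 2.92 and 2.56 FPKM in whole lung, 0.656 and 0.747 in TRAP, 0.279 and 0.218 in the E16 wild type and 0.201 and 0.199 in the mutant. These paralogs, like Hoxb9 below, were read from few fragments in TRAP, 5 to 17 for Hoxa7 and Hoxb7 at E14 and E17.
Among the remaining 26 members, Hoxc4 reached 2.29 FPKM and Hoxc5 1.03 FPKM in E14 whole lung, and Hoxb9 reached 1.12 FPKM in E17 TRAP. Hoxa9, Hoxb1 and the other Hoxc and Hoxd genes stayed at or below 0.506 FPKM, the value of Hoxd9 in E17 whole lung. In all, 9 members were listed at 0 in all 8 libraries, namely Hoxa10, Hoxa11, Hoxa13, Hoxb13, Hoxc8, Hoxc9, Hoxc11, Hoxc12 and Hoxd12.

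TRAP was then compared with whole lung, the comparison that shows how mRNA on the ribosomes of the labelled cells differs from that of the whole organ. Every Hox gene with enough signal to test was lower in TRAP, from Hoxa5 at the top to Hoxb7. The Hox total was 6.49 times higher in whole lung at E14 and 6.72 times higher at E17. The test was limma on log2(FPKM + 1) with stage as a term and Benjamini-Hochberg adjustment over 12320 records, those averaging 1 FPKM or more. All log2 differences below are on that scale, which understates the change of low genes. With 1 library per fraction and stage, its spread is only the disagreement between the stages.
Of the 39 members 13 were tested, and 13 passed as lower in TRAP, against a background of 17.1% of all records called lower. The other 26 fell below the filter and were not tested. Hoxa6, Hoxa7 and Hoxb7 averaged under 1 FPKM in TRAP and entered through whole lung alone, so the filter set the direction of these. The 10 others tested averaged 1 FPKM or more in TRAP as well. Just inside the filter lay Hoxa7 (mean 1.57 FPKM) and Hoxb7 (1.72), and just outside it Hoxc4 (0.991). Without the stage term 7 of the 13 passed, namely Hoxa2, Hoxa3, Hoxa5, Hoxa7, Hoxb3, Hoxb4 and Hoxb5. Under that setting 3.37% of all records were called lower. With any 1 of the 4 libraries left out, which also removes the stage term, all 13 differences stayed negative. Such a fit leaves 1 library in a fraction, so no count of calls is given for it.

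Among the tested members Hoxa5 and Hoxb5 had the largest log2 differences. Hoxa5 was 9.79 times higher in whole lung at E14 and 13.8 times at E17 (log2 difference of TRAP minus whole lung -3.38, SE 0.13, limma adjusted p = 0.000331). Hoxb5 was 8.65 and 9.87 times higher in whole lung (log2 -3.04, SE 0.10, adjusted p = 0.000275). Hoxb6 followed at 9.06 and 8.35 times (log2 -2.70, SE 0.16, adjusted p = 0.000637).
Hoxb4 (log2 -2.35), Hoxa2 (-2.25), Hoxb3 (-2.19) and Hoxa3 (-2.05) made a middle group, with limma adjusted p from 0.00078 to 0.00156. Hoxb2, the highest in TRAP, had a smaller log2 difference than Hoxa5, a contrast that was not tested: it was 3.77 and 4.52 times higher in whole lung (log2 -1.97, SE 0.11, adjusted p = 0.000617). Hoxa6 (-1.80), Hoxa4 (-1.74), Hoxb8 (-1.65), Hoxa7 (-1.52) and Hoxb7 (-1.13) had the smallest differences on this scale, where low levels shrink them. As plain ratios, Hoxa7 was 11.8 and 6.85 times higher in whole lung, whereas Hoxa4 was 4.02 and 4.01 times higher. The median over all records tested was a log2 difference of 0.05.

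**Figure D2:**
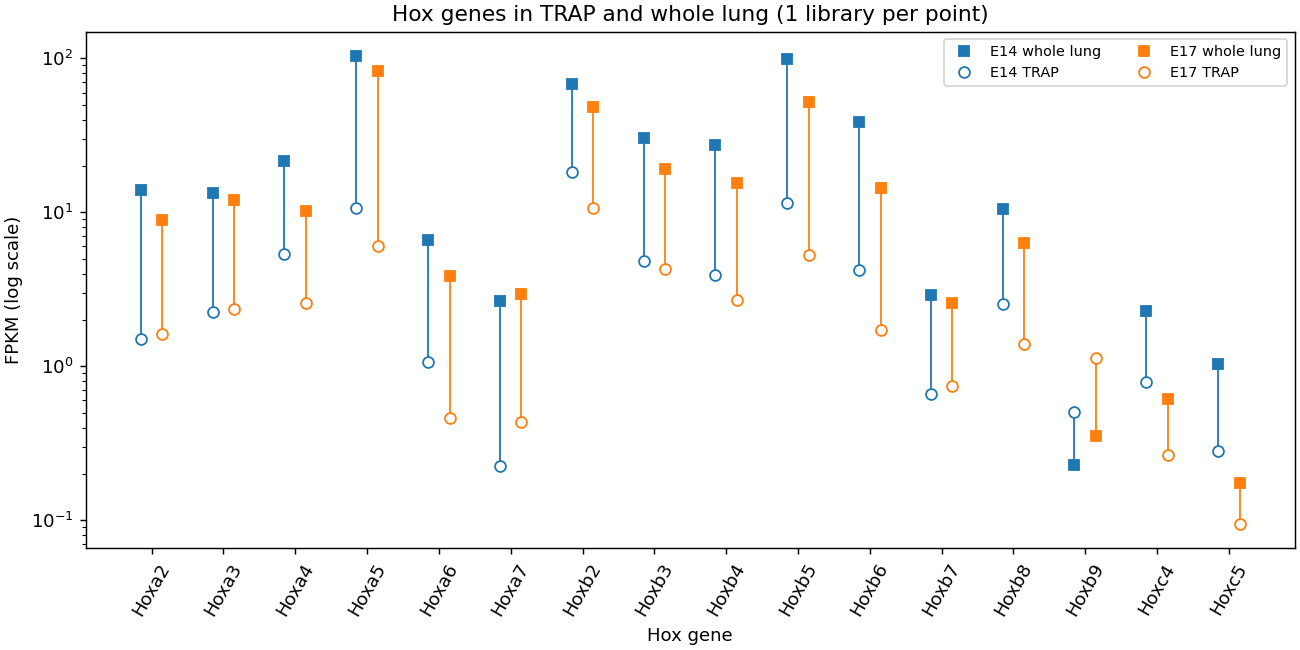
FPKM on a log axis in whole lung (filled squares) and TRAP (open circles) at E14 (blue) and E17 (orange), 1 library per point, for 16 of the Hox genes that were above 0 in these 4 libraries and reached 1 FPKM in at least 1. The circle lies below its square for every gene shown except Hoxb9, where E17 TRAP was at 1.12 FPKM and E17 whole lung at 0.351.

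Hoxb9 went the other way. It was at 0.505 FPKM in E14 TRAP against 0.229 in whole lung, and at 1.12 against 0.351 at E17. That is 2.21 times higher in TRAP at E14 (16 against 18 fragments, 95% interval of the ratio 1.05 to 4.59) and 3.21 times at E17 (57 against 20 fragments, 1.90 to 5.63), where exact intervals cover counting error only. Its mean of 0.552 FPKM kept it out of the test, and with no filter the limma log2 difference was 0.47 (adjusted p = 0.0753). Its E16 values were 0.550 and 0.360 FPKM in the wild type and 0.189 in both mutant libraries.
Next to it in the cluster, 5311 bases away, Hoxb8 was lower in TRAP at both stages. The level of Hoxb9 was 0.0218 and 0.0558 times that of Hoxb8 in E14 and E17 whole lung, but between 0.198 and 0.979 times in the TRAP libraries. Counted over all 39 members with no test, 22 were lower in TRAP at both stages and Hoxb9 alone was higher at both. Another 6 were neither, and 10 were at 0 in all 4 libraries.

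Markers of other cell types moved with these genes. Of the mesenchyme markers, 11 of 11 tested were lower in TRAP, with a median log2 difference of -2.99 and a range from -4.95 to -1.98. Their summed level was 96.4 FPKM in E14 TRAP against 1130 in whole lung, and 116 against 1395 at E17, which is 11.7 and 12.1 times higher in whole lung. None of these markers was at 0 in any TRAP library. All 7 endothelium, 6 smooth muscle and 5 tested leukocyte markers were also lower in TRAP, as were 4 of 5 of the mesothelium, while 12 of 12 epithelium markers were higher. Lum, Tek, C1qa, Laptm5, Csf1r, Wt1 and Lrrn4 averaged under 1 FPKM in TRAP and entered through whole lung alone. The filter thus set the direction of these markers. The part of these cell types in the Hox differences was not tested, and in bulk samples fewer cells of a type cannot be told apart from less RNA per cell. The TALE homeodomain proteins, which bind DNA together with Hox proteins, split: 6 of 9 were lower in TRAP, where the background of lower calls is the 17.1% above, and 2 were higher. Meis1 was at 48.9 and 26.6 FPKM in whole lung against 18.3 and 14.7 in TRAP (log2 -1.09, limma adjusted p = 0.00506), and Pbx2 was at 64.7 and 45.2 against 105.9 and 76.4 (0.72, adjusted p = 0.00364).
Pbx4 also passed as higher, but with each library rescaled to a common total neither Pbx2 nor Pbx4 passed. Of 14 tested regulators upstream of Hox genes, 5 were lower in TRAP and 2 higher, beside 17.1% of all records called lower. The share of all records called higher is not given here. Aldh1a2, which makes retinoic acid, was at 29.1 and 12.4 FPKM in whole lung against 1.26 and 1.20 in TRAP (log2 -3.17, limma adjusted p = 0.00141). The retinoic acid receptor gene Rarg was at 27.0 and 40.7 FPKM in whole lung against 59.4 and 60.3 in TRAP (0.83, adjusted p = 0.0101), and it did not pass with the libraries rescaled to a common total. Of 6 tested neighbours outside the clusters, 1 was lower in TRAP, beside the same 17.1%, 1 was higher and 4 did not pass. Skap2, beside the Hoxa cluster, was at 26.7 and 26.2 FPKM in whole lung against 7.19 and 8.24 in TRAP. Mtx2, beside the Hoxd cluster, was at 49.1 and 46.3 FPKM in whole lung against 71.3 and 64.2 in TRAP (log2 0.50, limma adjusted p = 0.0112), and it did not pass with the libraries rescaled to a common total.

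Between E14 and E17 most Hox genes were lower at the later stage, with no replicate and so no test. In whole lung 15 members averaged 1 FPKM or more over both stages, and 14 of them were lower at E17, beside 6434 of 12493 records in all. The median log2 difference over all records was -0.01, and that of the 15 members was -0.65. At least 2-fold lower on the log2(FPKM + 1) scale were 3 of them, against a background of 1.3% of all records. These were Hoxb6 (-1.36), Hoxc4 (-1.03) and, just past that line, Hoxa4 (-1.002). Hoxa7 was the member that was higher at E17 (0.12).
In TRAP 10 members could be compared and 8 were lower at E17, beside 5692 of 11810 records in all. The median over all records was 0.02, and that of the 10 members was -0.64. None reached a 2-fold difference on that scale, where the background was 1.91%. Hoxb5 came closest (-0.998), followed by Hoxb6 (-0.95), Hoxa4 (-0.84), Hoxa5 (-0.72) and Hoxb2 (-0.72). Hoxa2 (0.07) and Hoxa3 (0.04) were almost level in TRAP. The count at 2-fold rose to 3 with a pseudocount of 0.1 and to 5 with the libraries rescaled to a common total. That rescaling moved the median over all records to -0.43. The share of all records at 2-fold under these 2 settings is not given here, so the counts cannot be set against a background. Within the Hoxb cluster the whole lung difference ran from -0.50 in Hoxb2, -0.65 in Hoxb3 and -0.78 in Hoxb4 to -0.93 in Hoxb5 and -1.36 in Hoxb6, then back to -0.14 in Hoxb7 and -0.66 in Hoxb8.

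**Figure D3:**
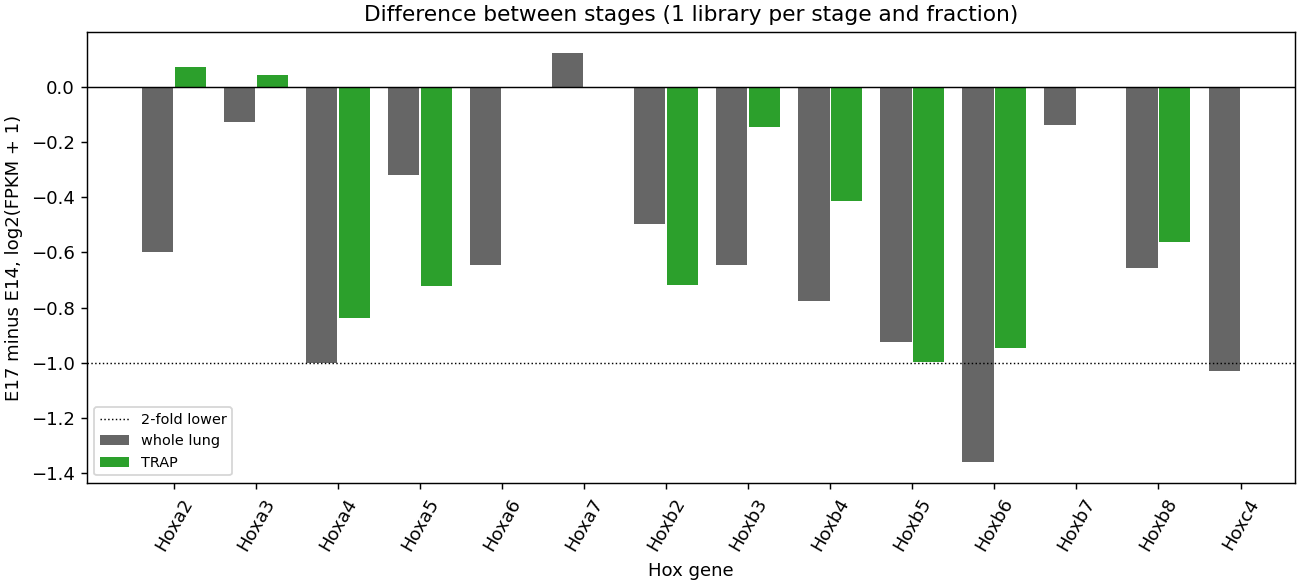
Difference of E17 minus E14 in log2(FPKM + 1) for 14 of the Hox genes averaging 1 FPKM or more over both stages, in whole lung (grey bars) and TRAP (green bars, drawn where compared), from 1 library per stage and fraction. Most bars point down, Hoxb6 in whole lung reaches -1.36, and Hoxa2 and Hoxa3 in TRAP and Hoxa7 in whole lung lie above 0.

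The replicated comparison, Sox9 mutant against wild type at E16, addressed how loss of normal Sox9 alters the mRNA on ribosomes of the labelled cells. No Hox gene passed. Of the 39 members 9 averaged 1 FPKM or more over these 4 libraries, and 0 of 9 were called by limma, 0 at an unadjusted p under 0.05 and 0 by limma-voom on inferred fragments. The background was 31.6% of 11872 records called in either direction. The 9 log2 differences of mutant minus wild type ran from -0.35 to 0.15 with SEs of 0.14 to 0.29, and the median over all records was 0.01.
Hoxb5 was at 6.52 ± 2.11 FPKM in the wild type and 4.96 ± 2.13 in the mutant (SD, n = 2 each; log2 -0.35, SE 0.29, limma adjusted p = 0.391). Hoxa5 was at 6.06 ± 1.83 and 4.79 ± 1.47 FPKM (log2 -0.29, SE 0.23, adjusted p = 0.391). Hoxb2 was at 11.7 ± 2.16 and 13.1 ± 2.46 FPKM (log2 0.15, SE 0.16, adjusted p = 0.499). In each of these the wild-type and mutant values overlapped, as they did in the other tested members Hoxa2, Hoxa3, Hoxa4, Hoxb3, Hoxb4 and Hoxb6. With 1 library left out at a time, 7 of the 9 changed sign at least once, while Hoxa5 and Hoxb6 stayed negative throughout. There were 7 positive differences of 9 without mutant replicate 1, 5 without wild-type replicate 2, and none without mutant replicate 2 or without wild-type replicate 1. With the libraries rescaled to a common total, the median over all records moved to 0.41 and that of the 9 Hox genes to 0.14, against 0.01 and -0.08 as deposited.

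**Figure D4:**
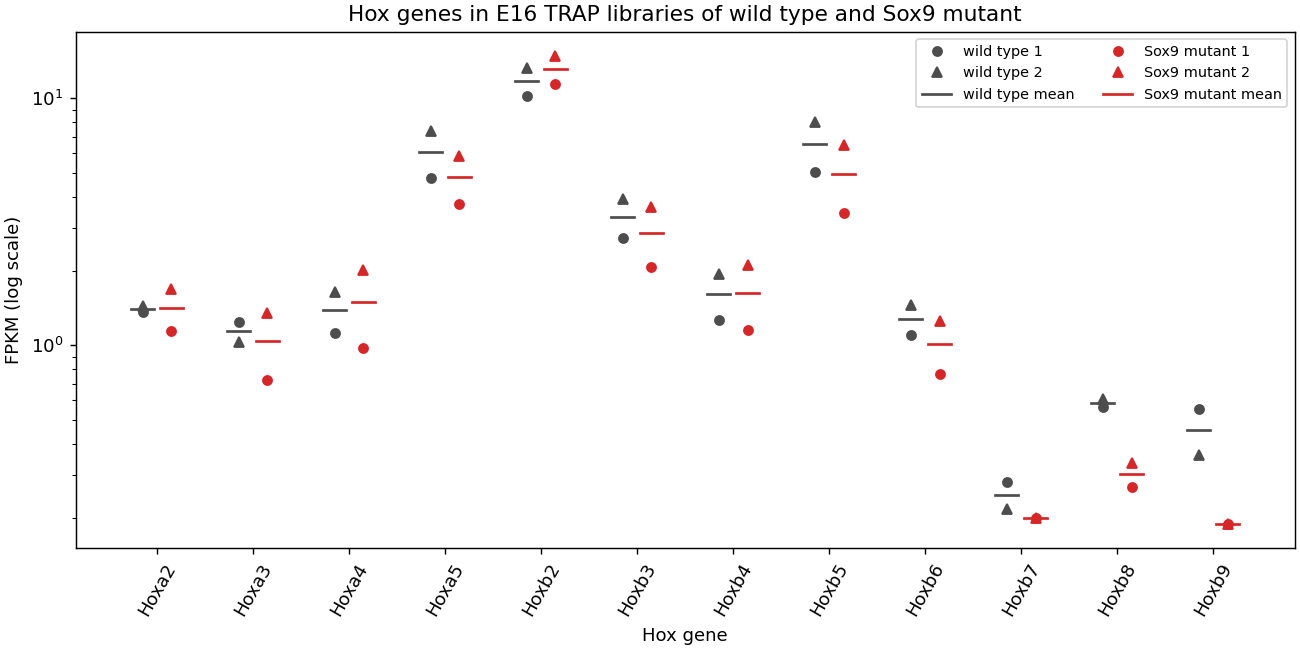
FPKM on a log axis of 12 Hox genes in the 2 wild-type (grey) and 2 Sox9-mutant (red) TRAP libraries of E16, with replicate 1 as circles, replicate 2 as triangles and bars at the group means. Wild-type and mutant points overlap for Hoxa2 to Hoxb6, while for Hoxb7, Hoxb8 and Hoxb9 both mutant points lie below both wild-type points. At Hoxb8 they are 0.267 and 0.334 against 0.563 and 0.608 FPKM. Such a separation, in either direction, was seen in 60% of the 17838 records above 0 in any of these libraries.

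The 5′ end of the Hoxb cluster stood below the filter. Hoxb8 was at 0.585 ± 0.0325 FPKM in the wild type and 0.301 ± 0.0471 in the mutant (SD, n = 2 each), from 31.9 and 37.6 against 18 and 18.9 fragments. Hoxb9 was at 0.455 ± 0.134 and 0.189 ± 0.00021 FPKM, from 31.9 and 22.8 against 13 and 11 fragments. Their wild-type and mutant values did not overlap, which with 2 libraries against 2 held for 60% of the 17838 records above 0 in any of them. Nor did those of Hoxb7 (0.249 ± 0.043 and 0.2002 ± 0.00111), from 7 and 6 against 6 and 5 fragments. Hoxb1, Hoxd1 and Hoxd11 did not overlap either and were higher in the mutant, from at most 5 fragments in a library.
With no filter on low values Hoxb8 passed (log2 -0.29, SE 0.05, limma adjusted p = 0.032, where 18.3% of records were called) and Hoxb9 did not (-0.29, adjusted p = 0.0757). With limma-voom on records of at least 10 fragments, an alternative chosen after seeing the data, neither passed (Hoxb8 -0.95, adjusted p = 0.0988, and Hoxb9 -1.17, adjusted p = 0.0959). The call for Hoxb8 thus depended on the filter, and Hoxb9 passed in neither.

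Among the proteins that act with Hox factors, 2 of 8 tested cofactor genes rose in the mutant and 6 did not pass, where 31.6% of all records were called. Pbx2 rose from 82.2 and 79.001 FPKM in the wild type to 97.1 and 94.1 in the mutant (log2 0.24, limma adjusted p = 0.0146). Each mutant value of Pbx2 exceeded each wild-type value, but values did not overlap, in either direction, in 60% of the 17838 records above 0.
Of 11 tested upstream regulators 3 rose and 4 fell, beside the same background of 31.6%. Rarb, itself a known target of retinoic acid, rose from 10.9 and 11.5 to 22.5 and 26.4 FPKM (log2 1.06, SE 0.09, limma adjusted p = 0.000686). Rarg fell from 71.2 and 72.5 to 52.97 and 48.8 FPKM (-0.49, adjusted p = 0.00209), and the Polycomb methyltransferase gene Ezh2 fell from 46.2 and 47.5 to 38.3 and 36.9 FPKM (-0.31, adjusted p = 0.00729). The receptor gene Rara and the signalling gene Gdf11 also rose, and Polycomb genes Bmi1 and Cbx2 also fell. None of these regulators, nor Pbx2, passed with the libraries rescaled to a common total. Sox9 itself did not pass under that setting either (log2 -1.09, SE 0.65, limma adjusted p = 0.858), so it cannot separate weak calls from strong ones. With records under 200 bases left out before rescaling, Cbx2 did not pass (limma adjusted p = 0.0775), whereas Sox9 and the other regulators named here did. Of the mesenchyme markers 1 of 12 rose (Dcn) and 1 fell (Foxf1), with a median of -0.31, and they summed to 111 and 151 FPKM in wild-type libraries and to 74.7 and 140.4 in mutant ones. The part of that level in the Hox values was not tested.

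Noncoding RNAs of the clusters gave little. Of 17 listed, 10 had a record and 8 of these were at 0 in all libraries. Mir196a-1 was at 375 FPKM in wild-type replicate 1 and at 0 elsewhere, and that value rested on 1 fragment in a record of 102 bases. Of 10 neighbours with a record outside the clusters, 6 were tested in the mutant, where 31.6% of all records were called. Hibadh rose (39.2 and 36.3 to 51.7 and 52.6 FPKM) and Mtx2 fell (57.1 and 57.9 to 50.9 and 51.6 FPKM). Mtx2 did not pass under either rescaling. Hibadh did not pass with rescaling to a common total, where Sox9 did not pass either.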

How the data were processed

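The authors deposited FPKM values with lower and upper confidence bounds for 24487 records in each of 8 libraries, per the file headers. Reads were processed with TopHat2 2.0.14, Bowtie2 2.2.3, Cufflinks 2.2.1 and Cuffnorm on mm10, per the submitters' processing notes, and their settings are not given in the sources used here. Libraries were grouped by title. Values were used as deposited. Records were joined by symbol and position, and 1 was added to starts counted from 0. Fragments were inferred as the squared ratio of FPKM to its standard error, taking the upper bound to lie 2 standard errors above. Of 85 nonzero Hox values under 20 fragments, 60 (70.6%) came out within 0.02 of a whole number, so these were used only in alternatives and counting intervals.

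Tests used limma 3.58.1 in R 4.3.3 (eBayes with trend, log2(FPKM + 1), mean of at least 1 FPKM, two-sided, Benjamini-Hochberg adjustment over all records, call at 0.05). The steps were tested on simulated data. Single libraries were compared at 2-fold with no test. Members with a mean of at least 5 FPKM, or called in either fit, were given by library, others by range and count. Of each gene list, up to 4 members with the smallest p were named. Hoxb9, Hoxc4, Hoxc5 and Hoxd9 were named after their values were seen. Some genes are counted but not reported here by name. Members and lists were chosen with earlier results of these data known. Alternatives covered pseudocount, filter, scaling, left-out libraries, replicate numbers and limma-voom. Promoters came from RefSeq (GRCm38.p6).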

Additional observations from a re-analysis of the deposited data

Results flagged for a closer look

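Among the Hox genes averaging 1 FPKM or more over both stages in whole lung, there were 3 for which the single TRAP libraries and the single whole lung libraries moved in opposite directions between E14 and E17. The difference between the fractions was not tested, since each value comes from 1 library per stage. Hoxa2 was higher at E17 in TRAP (log2 difference 0.0723) and lower in whole lung (-0.597). Hoxa3 differed by 0.0443 in TRAP and -0.126 in whole lung. Hoxb7 differed by 0.0771 in TRAP and -0.139 in whole lung, with 9 and 17 fragments behind its TRAP values. The less abundant genes Hoxd4, Hoxd8, Hoxd10 and Hoxd11, at most 0.498 FPKM in these libraries, also had opposite signs.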

How the results depend on the processing

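In the E16 comparison the count of Hox genes called was 0. It became 1 of 25 with no filter on low values (Hoxb8), where 18.3% of all records were called. With a replicate block it became 1 of 9 (Hoxb5, log2 -0.35, limma adjusted p = 0.0359), where 29.5% of all records were called. The replicate numbers were not taken to pair the samples: same-numbered libraries deviated together with a correlation of 0.0072 over 11872 records and 0.617 over the 9 Hox genes. Every other alternative run for that count gave 0. In TRAP against whole lung the count of 13 became 7 with no stage term. No count is given for the fits with 1 library left out, which leave 1 library in a fraction. The remaining alternatives gave counts within 1.5 times of 13. With no filter 14 of 29 were called lower, beside 10.4% of all records. With limma-voom on records of at least 10 fragments 17 of 24 were called lower, beside 20.8% of all records. The stage count in TRAP went from 0 to 3 with a pseudocount of 0.1, to 5 with a common total, to 1 with records under 200 bases left out before rescaling, and to 5 at 1.5-fold. In whole lung it went from 3 to 10 at 1.5-fold. The shares of all records under these stage settings are not given here, so the counts cannot be set against a background. The cause of these shifts was not tested, except that a lower fold admits more genes by construction. The Hoxb share cannot move under the alternatives run, since each symbol has 1 record and a rescaling acts on a whole library. Depth limits the low members: Hoxb7 rested on 5 to 17 fragments in the TRAP libraries.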

Other observations

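Gm53, a record between Hoxb13 and Hoxb9 on chromosome 11 (96251660 to 96264484, mm10; 6845 bases from Hoxb9) that was picked after its values were seen, was higher in TRAP as Hoxb9 was. It was at 2.18 FPKM in E14 TRAP against 0.738 in whole lung, and at 4.90 against 1.52 at E17 (log2 1.05, SE 0.20, limma adjusted p = 0.0115), and it did not pass with limma-voom on records of at least 10 fragments (log2 1.51, adjusted p = 0.0546). These are 2.95 and 3.22 times higher levels in TRAP, from 11.9 against 9.6 fragments at E14 and 44.3 against 14.7 at E17. In the E16 libraries it was at 2.49 and 1.004 FPKM in the wild type and at 0.331 and 1.001 in the mutant (log2 -0.70, adjusted p = 0.145).

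The long record 2700086A05Rik, which overlaps Hoxa3, Hoxa5 and Hoxa6, was at 5.30 FPKM in whole lung against 2.18 in TRAP at E14, and at 1.28 against 0.219 at E17. Mira, close to Hoxa7, was at 0.514 and 0.696 FPKM in E14 and E17 TRAP and at 4.80 and 6.10 in whole lung (log2 -2.001, limma adjusted p = 0.00149). Mira averaged under 1 FPKM in TRAP and entered the test through whole lung alone, so the filter set its direction. Both records were picked after their values were seen.

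In 7 of the 10 Hox genes compared between stages in TRAP, both E16 wild-type libraries lay below both the E14 and the E17 TRAP library, as they did in 30.2% of 11810 records. The genes were Hoxa2, Hoxa3, Hoxa4, Hoxb3, Hoxb4, Hoxb6 and Hoxb8. The cofactor gene Meis1 was likewise at 3.21 and 3.85 FPKM in the E16 wild type against 18.3 and 14.7 in E14 and E17 TRAP. The erythroid markers summed to 224 and 214 FPKM in the E16 wild type against 2064 and 3040 in E14 and E17 TRAP, and Hba-a1 was at 153 and 136 against 1758 and 1981. The mesenchyme markers were divided. Foxf1 (6.16 and 8.95 against 13.9 and 12.2 FPKM), Tbx5 (2.004 and 2.67 against 6.30 and 6.93), Tcf21 and Pdgfrb were lower too. Col3a1 (25.2 and 34.0 against 9.48 and 11.0 FPKM), Col1a1, Col1a2, Dcn, Lum and Twist1 were higher in both E16 wild-type libraries, and Tbx4 and Pdgfra were neither. The whole list summed to 111 and 151 against 96.4 and 116. The part of these markers in the Hox values was not tested. The labels do not say whether the E16 libraries were prepared with the others.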
